A study of Gallus gallus with 20 samples.

Results

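Residual feed intake (RFI) is the feed an animal eats beyond what its body weight and growth predict, so a bird of low RFI uses feed more efficiently than one of high RFI. The comparison described here is that of the pituitary gland between male Korat chickens of low and of high RFI, a Thai line named KRC in the labels. Its members are the 10 RNA-sequencing libraries labelled as pituitary, 5 of low RFI and 5 of high RFI, out of 20 libraries in the series. The other 10 are of hypothalamus from the same 2 RFI groups. All birds came from 200 males raised in individual cages with free access to 1 commercial feed, and RFI was calculated at 10 weeks of age. The labels name no drug, allele or diet that separates the groups, which are the extremes of a natural spread. Each library is a pool: the study's design text states 8 birds per group for the pituitary, 2 per pool and 4 pools per group, while the titles list 5 pituitary libraries per group. All 5 enter here as separate pools, and p-values therefore measure the spread between these pools. Whether all 5 hold different birds cannot be told from these statements, so their independence is assumed. Libraries are called here by group and number as in the titles.

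The pituitary hangs from the base of the brain. Its anterior lobe holds endocrine cells that each make 1 or a few hormones: growth hormone (GH), prolactin (PRL), the corticotropin precursor proopiomelanocortin (POMC), and the glycoprotein hormones built from a shared alpha chain (CGA) with a thyrotropin (TSHB) or follitropin (FSHB) beta chain. Hypothalamic releasing factors drive these cells through membrane receptors, and hormones of the thyroid, gonads, adrenal and liver feed back on them. The posterior lobe holds nerve endings and glia, and the gland is wrapped in meninges, lies close to brain tissue and cranial nerves, and sits above the bone and mucosa of the palate.

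Every library held pituitary RNA, since none had less than 6329 CPM (counts scaled to library size by the TMM method) of GH. That level does not show that a library held pituitary alone. Low RFI library 1, at 6329 CPM of GH, also had 28686 CPM of summed oligodendrocyte markers. GH was the most abundant hormone transcript per length, at 37049 ± 21864 FPKM in low RFI and 41054 ± 14223 FPKM in high RFI (the authors' fragment counts scaled to length and depth, SD, n = 5 each). Depth ran from 10262777 to 11960994 counts per library, and the mitochondrial share from 5.18 to 10.96% of counts. Levels below are in CPM unless said otherwise, and folds are log2 of low RFI over high RFI.

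No gene passed the test for a difference between the RFI groups. Of the 28021 genes listed, 15786 passed the filter on low counts and were tested with edgeR's quasi-likelihood test, and of these 0 (0.0%) reached a Benjamini-Hochberg adjusted p under 0.05, and the smallest adjusted p was 0.999. An unadjusted p under 0.05 was reached by 296 genes (1.88%), of which 130 were higher in low RFI (0.824%) and 166 lower (1.05%). The 5 libraries of the groups did not overlap at all for 42 genes (0.266%), with low RFI above for 14 (0.0887%) and below for 28 (0.177%). Where no gene differs, a cut at 0.05 still marks a share of about 0.05 of the genes, and 1.88% lies below that. Separation without overlap also arises by chance, so neither count shows a difference between the groups. DESeq2 also called 0 genes, with 379 at an unadjusted p under 0.05, and limma-voom 0, with 221. Over all genes tested, log2 folds had a median standard error of 0.23 and a median size of 0.13. Every difference named below is therefore a measured value that missed the threshold, and a missed threshold does not show that the groups are alike.

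Libraries of 1 group differed widely. In low RFI library 1, 838 genes (5.31% of those tested) lay at least 4-fold from the median of the other 9 libraries, in low RFI library 2 303 genes, and in low RFI library 4 220 genes. In high RFI library 4 the number was 397 genes (2.51%), and in the other 6 libraries between 35 and 128. The spread was wider in low RFI, with a median SD of 0.353 on the log2 CPM scale against 0.24 in high RFI. Of single genes, 1245 had an SD over 1 in low RFI and 460 in high RFI. Each of the 4 libraries was marked by its own set of genes. Low RFI library 1 held 42.9 CPM of GBX2 and 33.7 of LHX9, homeobox genes of the diencephalon, against at most 0.344 and 0.512 in the others. Low RFI library 2 held the sensory neuron genes SCN11A at 535 CPM, PIRT at 179 and LPAR3 at 430, against at most 27.4, 13.5 and 38.3. Low RFI library 4 held 5237 CPM of BPIL3, 344 of the chitinase gene CHIA and 225 of the epithelial antibody receptor gene PIGR, against at most 10.7, 1.27 and 1.19. High RFI library 4 held genes made in cerebellum or midbrain. They were BARHL1 at 56.8 CPM, GABRD at 139, FAT2 at 140 and EN2 at 75.9, against at most 0.254, 2.56, 2.89 and 1.99. High RFI library 2 stood highest in the bone genes MMP13 (527 CPM, next 148), DMP1 (67.7, next 18.5) and PHEX (19.0, next 4.05). The pituitary comparison was therefore also fitted without low RFI library 1 and high RFI library 4, and then also without low RFI libraries 2 and 4. The low RFI side of this last set rests on libraries 3 and 5 alone. The larger of these reduced sets gave 447 genes at an unadjusted p under 0.05 (2.83%), with low RFI above without overlap for 102 (0.645%) and below for 194 (1.23%). The smaller gave 711 (4.35%), and both gave 0 genes past the adjusted threshold (0.0%). With fewer libraries per group, separation without overlap arises more often by chance. The shares without overlap in the larger reduced set are therefore not comparable with those over all libraries. In bulk RNA, fewer cells of a type and less RNA per cell cannot be told apart.

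**Figure D1:**
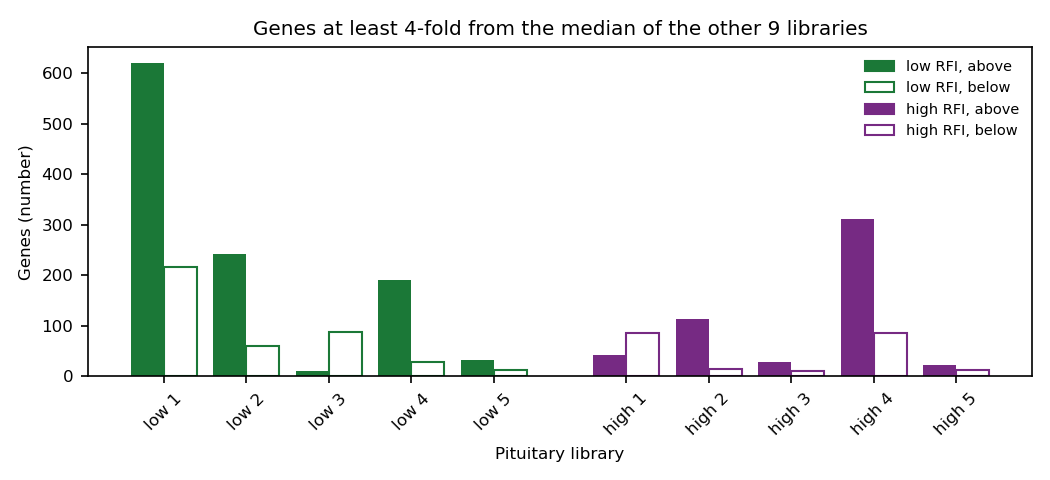
Number of genes (y axis) at least 4-fold above (filled) or below (open) the median of the other 9 pituitary libraries, for each library (x axis; green, low RFI; purple, high RFI). Low RFI library 1 has 621 genes above and 217 below, high RFI library 4 has 311 and 86, and high RFI library 5 has 23 and 12.

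Hormone transcripts did not separate the groups. GH had 6329, 31471, 40177, 26500 and 58101 CPM in low RFI, against 56610, 31515, 37889, 23650 and 31445 CPM in high RFI. The ranges overlapped over most of their length, and low RFI library 1 stood lowest. The log2 fold of GH was -0.16 (95% interval -1.22 to 0.91), and without low RFI library 1 and high RFI library 4 it was 0.01. POMC had 9604, 14213, 27098, 26456 and 25656 CPM in low RFI, against 26547, 14220, 21949, 9854 and 26676 CPM in high RFI, with a log2 fold of 0.05 (-0.77 to 0.88). PRL averaged 6493 ± 3853 CPM in low RFI, against 6785 ± 2901 CPM in high RFI (SD, n = 5 each), a log2 fold of -0.06 (-1.14 to 1.01). The 2 libraries with the least PRL were low RFI library 1, at 1823 CPM, and high RFI library 4, at 2551 CPM.

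The glycoprotein hormone chains varied by several fold within each group. CGA, the shared alpha chain, averaged 9573 ± 5044 CPM in low RFI, against 9719 ± 3909 CPM in high RFI (log2 fold -0.02, interval -0.93 to 0.89). TSHB, the thyrotropin beta chain, ranged from 229 to 1074 CPM in low RFI and from 276 to 1045 CPM in high RFI, a log2 fold of -0.07 (-1.16 to 1.03). FSHB, the follitropin beta chain, ranged from 85.7 to 1120 CPM in low RFI and from 202 to 1542 CPM in high RFI, a log2 fold of -0.08 (-1.61 to 1.45). Per length, the order of the means below GH was the same in both groups. In low RFI it ran from POMC at 12563 FPKM over PRL at 3723, CGA at 2681 and TSHB at 1112 to FSHB at 243 FPKM. In high RFI the same genes stood at 12083, 3877, 2712, 1159 and 257 FPKM. The ranges of mean ± SD overlapped for PRL and CGA and for CGA and TSHB in both groups, and for GH and POMC in low RFI. The summed level of the 6 genes ran from 23381 CPM in low RFI library 1 to 111217 CPM in low RFI library 5, and from 42387 in high RFI library 4 to 111148 in high RFI library 1. Thus the lowest library of each group was the one with the most genes far from the other libraries. Without those libraries and low RFI libraries 2 and 4, 5 of the 6 folds were above 0, with a median of 0.32 against -0.06 over all 10 libraries. That set keeps only low RFI libraries 3 and 5, which had the most GH of their group.

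**Figure D2:**
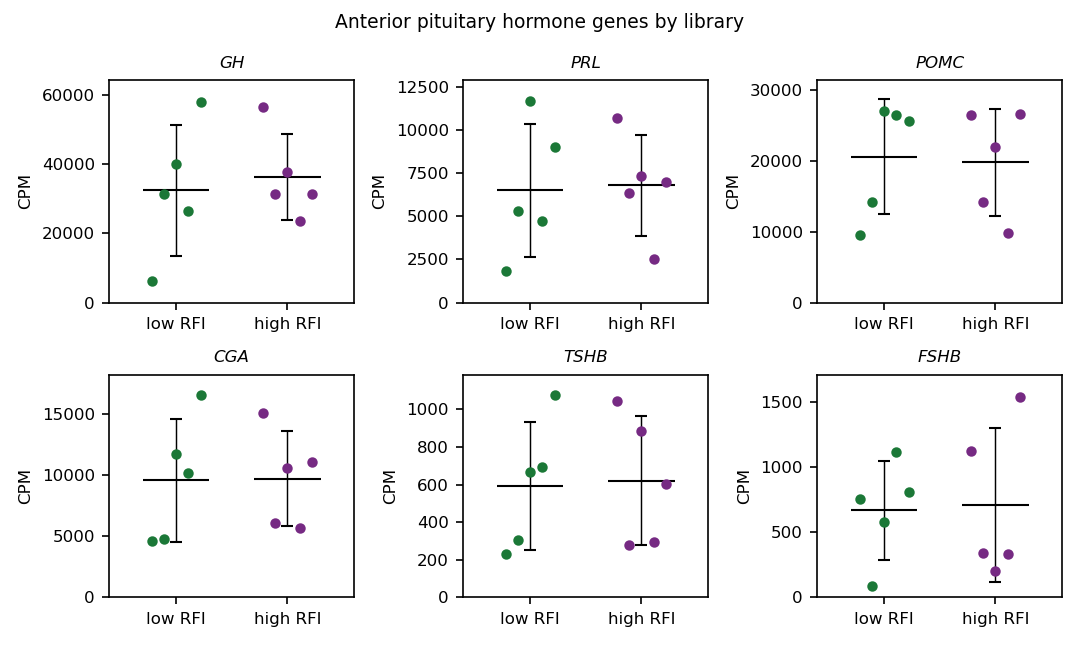
CPM (y axis, from 0) of the 6 anterior pituitary hormone genes in each low RFI (green) and high RFI (purple) library, libraries 1 to 5 from left to right; the long bar is the mean and the whisker 1 SD (n = 5 each). The groups overlap for all 6 genes, and low RFI library 1 is lowest of the low RFI libraries for every gene but FSHB.

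Genes that package and process the hormones had a median log2 fold of 0.02 over 12 tested members, near that of all genes (0.023), and 7 of 12 were above 0 where 55.5% of all genes were. Chromogranin A (CHGA), a core protein of secretory granules, averaged 30482 ± 11184 CPM in low RFI, against 33646 ± 8591 CPM in high RFI. PCSK1, the convertase that cuts POMC into corticotropin, averaged 273 ± 103 CPM in low RFI, against 272 ± 87.2 CPM in high RFI. The neuropeptide gene GAL, made by some anterior cells, had 2.39, 7.19, 21.4, 27.1 and 32.1 CPM in low RFI, against 23.2, 46.3, 37.6, 95.3 and 20.5 CPM in high RFI. Its groups overlapped, the highest library was high RFI library 4, and the log2 fold was -1.31 (SE 0.65, edgeR unadjusted p = 0.0715). Without the 2 most distant libraries that fold was -0.52. CADPS, which primes granules for release, had 431 CPM in low RFI library 2, 341 in library 1 and 144 to 150.3 in the other 3 of low RFI, against 144 to 183 CPM in high RFI. Its log2 fold of 0.60 was -0.05 without low RFI libraries 1, 2 and 4 and high RFI library 4.

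The transcription factors of the main pituitary lineages had folds near 0. POU1F1, which drives the GH, PRL and thyrotropin lineages, averaged 524 ± 210.3 CPM in low RFI, against 542 ± 109.6 CPM in high RFI (log2 fold -0.05). TBX19, the factor of POMC cells, averaged 71.2 ± 23.1 CPM in low RFI, against 67.9 ± 23.8 CPM in high RFI (0.07). NR5A1, the factor of gonadotropes, stood at 114 ± 42.5 CPM in low RFI and at 124 ± 41.9 CPM in high RFI (-0.12). Over 22 tested lineage factors, 7 folds were above 0 (55.5% of all genes were), with a median of -0.08. An unadjusted p under 0.05 was reached by 1 of them (1.88% of all genes). That gene was OTX2, at 11.7, 3.42, 1.38, 2.33 and 4.31 CPM in low RFI, against 1.99, 2.28, 1.10, 2.99 and 1.26 CPM in high RFI (log2 fold 1.26, SE 0.55, edgeR unadjusted p = 0.045). The groups overlapped, and the level of low RFI library 1 was the highest. TCF7L2, a Wnt pathway factor also made in the thalamus, stood at 284 CPM in low RFI library 1 and between 22.8 and 36.2 CPM in all others, so that its log2 fold of 1.46 became -0.07 without that library and high RFI library 4.

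Receptors for hypothalamic factors had a median log2 fold of -0.05 over 16 tested genes, 5 of them above 0, and none reached an unadjusted p under 0.05. GHRHR, the receptor for GH-releasing hormone, averaged 204 ± 134 CPM in low RFI, against 196 ± 37.9 CPM in high RFI, with low RFI library 5 highest at 408 CPM. TRHR, for thyrotropin-releasing hormone, averaged 26.7 ± 12.4 CPM in low RFI, against 27.1 ± 7.87 CPM in high RFI. CRHR1, for corticotropin-releasing hormone, averaged 14.6 ± 9.38 CPM in low RFI, against 18.9 ± 8.09 CPM in high RFI. DRD2, through which dopamine restrains prolactin cells in mammals, averaged 40.3 ± 15.5 CPM in low RFI, against 41.0 ± 16 CPM in high RFI. AVPR1A, a receptor for the avian hormone arginine vasotocin, had 10.0, 3.51, 13.4, 22.4 and 8.62 CPM in low RFI, against 20.2, 22.5, 24.9, 11.9 and 26.9 CPM in high RFI. Among the high RFI libraries, 3 were above every low RFI one, and the log2 fold was -0.88 (SE 0.42, edgeR unadjusted p = 0.0603), with -0.97 and -1.09 in the 2 reduced sets of libraries. GLP1R, a receptor of the gut hormone glucagon-like peptide, averaged 14.6 ± 6.58 CPM in low RFI, against 23.0 ± 10.7 CPM in high RFI. Its log2 fold was -0.66 over all libraries and 0.13 without 4 of them.

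Receptors for hormones that act back on the pituitary gave a median log2 fold of -0.07 over 15 genes. The glucocorticoid receptor gene NR3C1 had 13.6, 8.45, 17.3, 12.5 and 11.9 CPM in low RFI, against 17.6, 15.5, 17.4, 16.6 and 15.7 CPM in high RFI (log2 fold -0.38, SE 0.18, edgeR unadjusted p = 0.0599). Only low RFI library 3 reached the range of the high RFI libraries. The growth hormone receptor gene GHR averaged 52.4 ± 14.6 CPM in low RFI, against 66.5 ± 7.96 CPM in high RFI (-0.34). The leptin receptor (LEPR, -0.14), insulin receptor (INSR, 0.02), thyroid hormone receptors (THRA, -0.07, and THRB, 0.06) and estrogen receptor (ESR1, -0.18) had smaller folds.

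The genes of smallest p that were lower in low RFI included several solute carriers. SLC13A3, a sodium-driven transporter of dicarboxylates, had 141, 88.2, 97.7, 79.1 and 104 CPM in low RFI, against 462, 335, 200, 123 and 245 CPM in high RFI. Of the 5 high RFI libraries, 4 lay above every low RFI library, and high RFI library 4 lay within the low RFI range. The log2 fold was -1.42 (SE 0.32, edgeR unadjusted p = 0.00123), and -1.73 without low RFI library 1 and high RFI library 4. In that fit the edgeR adjusted p was 0.284, the smallest reached, and SLC26A1 and ITIH2 shared it. SLC6A13, a transporter of GABA and taurine that marks the leptomeninges in mice, had 3.49, 7.91, 8.08, 6.15 and 9.91 CPM in low RFI, against 35.1, 28.0, 13.3, 10.1 and 17.3 CPM in high RFI. Its groups did not overlap, by a narrow gap between 9.91 and 10.1 CPM (log2 fold -1.54, SE 0.38). SLC26A1, a sulfate and oxalate exchanger, had 46.8, 32.7, 33.0, 21.9 and 26.4 CPM in low RFI, against 141, 93.4, 73.3, 29.4 and 82.5 CPM in high RFI. High RFI library 4 was again the one that overlapped, and the log2 fold of -1.38 (SE 0.36) was -1.76 without it and low RFI library 1.

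ITIH2, a heavy chain that is bound to hyaluronan in the extracellular matrix, had 3.68, 4.59, 6.45, 4.66 and 7.52 CPM in low RFI, against 34.5, 22.1, 17.1, 5.12 and 18.3 CPM in high RFI (log2 fold -1.85, SE 0.43, edgeR unadjusted p = 0.00135). The overlap came from high RFI library 4 alone. CRABP2, which carries retinoic acid to its nuclear receptor, averaged 9.43 ± 3.80 CPM in low RFI, against 22 ± 7.93 CPM in high RFI (log2 fold -1.22, SE 0.34). SERPIND1, the gene of heparin cofactor, ranged from 0.827 to 3.12 CPM in low RFI and from 3.22 to 10.2 CPM in high RFI. The groups did not overlap but the gap was narrow (log2 fold -1.25, SE 0.45). It was named for its level in high RFI library 1, the highest of the 10.

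PDE6B and GDF11 had the smallest p of the lower genes whose groups did not overlap. PDE6B, a catalytic subunit of the phosphodiesterase that lowers cyclic GMP in rod photoreceptors, had the smallest unadjusted p of all the genes named here. It had 4.78, 3.69, 4.81, 2.70 and 2.39 CPM in low RFI, against 10.2, 7.40, 6.35, 11.2 and 7.41 CPM in high RFI. Every high RFI library lay above every low RFI one, and the log2 fold was -1.21 (SE 0.27, edgeR unadjusted p = 0.000998, adjusted p = 0.999). GDF11, a secreted ligand of the activin branch of the TGF-beta family, had 4.78, 8.00, 7.91, 8.94 and 10.9 CPM in low RFI, against 14.6, 17.4, 13.5, 13.8 and 14.7 CPM in high RFI (log2 fold -0.87, SE 0.21, edgeR unadjusted p = 0.00171). The groups did not overlap, and the fold was -0.74 and -0.67 in the 2 reduced sets. ZNF341, a zinc-finger transcription factor, had 19.6 to 24.9 CPM in low RFI and 25.9 to 31.7 CPM in high RFI. Its groups also did not overlap, by a narrow gap, and its log2 fold was smaller, at -0.36 (SE 0.11).

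PDE6B and SLC26A1 are close neighbours on chromosome Z of the GRCg6a assembly, at chrZ:53575086-53596769 and chrZ:53622721-53657488, with 25951 bases between them. Within 200000 bases of the pair, 16 genes were tested, the pair among them, and 5 had a fold below 0 (44.5% of all genes did). An unadjusted p under 0.05 was reached by 3 (1.88% of all genes), which include the pair that set the window. The third of these carries no gene name and was higher in low RFI (log2 fold 0.47). IDUA, whose listed span contains that of SLC26A1, averaged 40.4 ± 3.95 CPM in low RFI, against 43.7 ± 5.40 CPM in high RFI (-0.11), and whether reads were counted by strand is not given in the sources used here. RBP4, between the pair, averaged 3.23 ± 1.91 CPM in low RFI, against 4.35 ± 1.92 CPM in high RFI (-0.43). ATP5ME and TMEM175 on the other side had log2 folds of -0.03 and 0.05. This window was chosen after the values of the pair were seen. The other lower genes lay elsewhere, SLC13A3 at chr20:5549899-5573824, ITIH2 at chr1:4774156-4799281, SLC6A13 at chr1:60190170-60217228, GDF11 at chr33:5499569-5507669 and CRABP2 at chr25:2633647-2636309.

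The remaining lower genes were scarce or rested on few libraries. MSX1, a homeobox gene, had 0.643 to 1.02 CPM in low RFI, against 3.79, 1.80, 0.847, 6.49 and 1.52 CPM in high RFI. NMU, whose peptide neuromedin U lowers food intake in rodents, had 0.270 to 1.02 CPM in low RFI and 1.01 to 2.65 CPM in high RFI (log2 fold -1.43, SE 0.42). Both stood near or below 1 CPM in low RFI, where counting error is large. DDC, the decarboxylase that makes dopamine and serotonin, had 4.04, 5.85, 2.75, 6.61 and 5.69 CPM in low RFI, against 5.03, 10.6, 23.3, 69.0 and 9.51 CPM in high RFI. High RFI library 4 held the highest level, and the log2 fold of -2.24 (SE 0.66) was -1.20 without it and low RFI library 1.

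**Figure D3:**
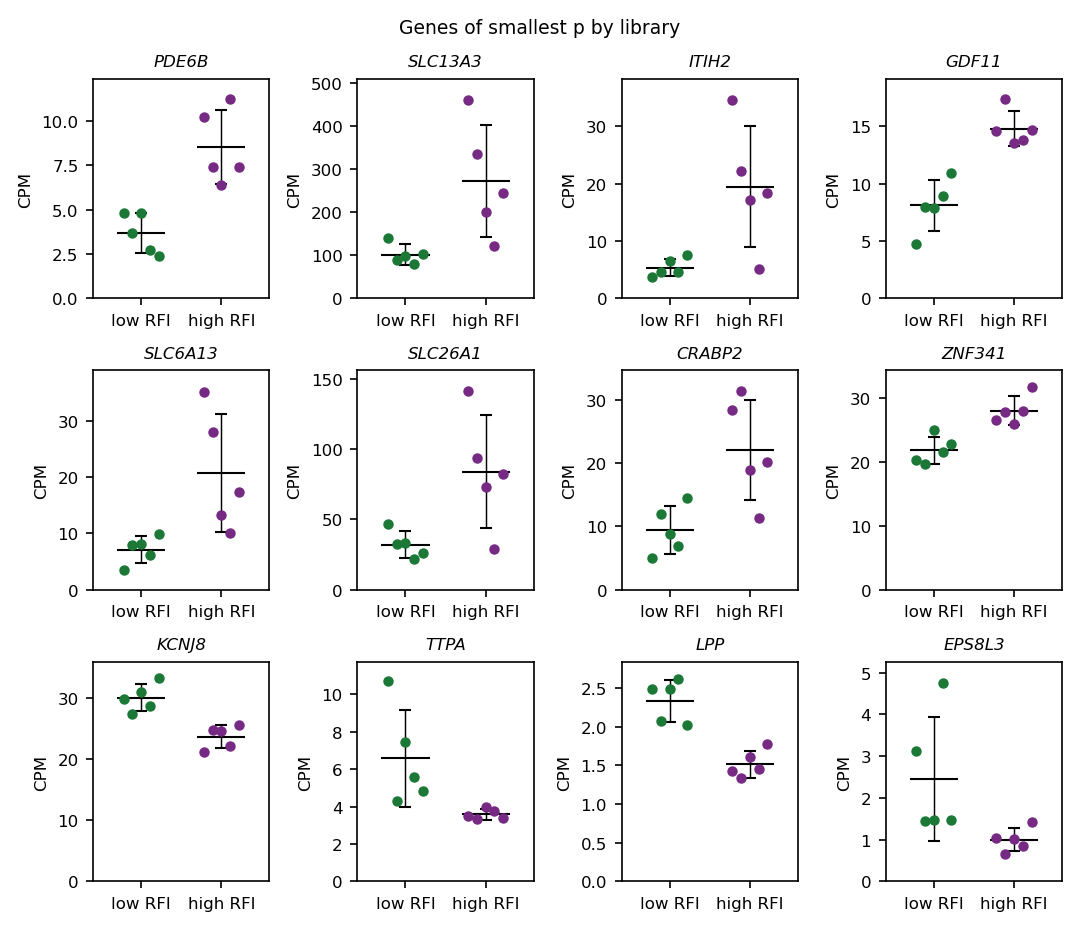
CPM (y axis, from 0) of 12 of the genes of smallest unadjusted p in each low RFI (green) and high RFI (purple) library, libraries 1 to 5 from left to right; the long bar is the mean and the whisker 1 SD (n = 5 each). PDE6B, GDF11, SLC6A13 and ZNF341 lie lower in low RFI with no overlap and KCNJ8, TTPA, LPP and EPS8L3 higher with no overlap. The gap is smaller than counting error for EPS8L3, and it is also narrow for SLC6A13, ZNF341, KCNJ8, TTPA and LPP. High RFI library 4 reaches the low RFI range for SLC13A3, ITIH2, SLC26A1 and CRABP2.

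On the higher side, 4 of the genes described did not overlap between the groups, beside 14 (0.0887%) of all genes tested. They were picked by smallest p, which favours such separation. KCNJ8, the pore of an ATP-sensitive potassium channel that marks pericytes in the mouse brain, had 29.8, 27.5, 31.1, 28.8 and 33.3 CPM in low RFI, against 21.2, 24.8, 24.6, 22.2 and 25.7 CPM in high RFI. The groups did not overlap, for a log2 fold of 0.34 (SE 0.10, edgeR unadjusted p = 0.00581). TTPA, the transfer protein of vitamin E, had 10.7, 4.32, 7.48, 5.59 and 4.86 CPM in low RFI, against 3.51, 3.32, 3.98, 3.76 and 3.37 CPM in high RFI (log2 fold 0.87, SE 0.26). The high RFI libraries lay close together, and low RFI library 1 was the highest. LPP, a LIM-domain protein of cell adhesion sites, had 2.48, 2.07, 2.49, 2.61 and 2.02 CPM in low RFI, against 1.42, 1.33, 1.61, 1.45 and 1.77 CPM in high RFI (log2 fold 0.62, SE 0.20). The gaps were narrow, between 25.7 and 27.5 CPM for KCNJ8, 3.98 and 4.32 for TTPA, and 1.77 and 2.02 for LPP.

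EPS8L3, a member of the EPS8 family of adaptor proteins, had 1.44 to 4.75 CPM in low RFI and 0.664 to 1.43 CPM in high RFI. Its groups did not overlap only by the gap between 1.43 and 1.44 CPM, which is smaller than counting error. Its log2 fold was 1.28 over all libraries and 0.49 without 4 of them. The folds of KCNJ8 and LPP moved little between the sets of libraries and were 0.43 and 0.56 without 4 of them. That of TTPA was 0.66 without low RFI library 1 and high RFI library 4, and 0.81 without 4 libraries.

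Several other higher genes leaned on low RFI libraries 1, 2 or 4. DGKH, a kinase that turns diacylglycerol into phosphatidic acid, had 4.04, 3.60, 1.63, 2.33 and 0.917 CPM in low RFI, against 0.948, 0.759, 1.19, 0.597 and 0.337 CPM in high RFI. Its log2 fold was 1.70 (SE 0.46, edgeR unadjusted p = 0.004), and 0.67 without the 4 libraries. COMTD1, a gene with a methyltransferase domain, had 17.7, 29.0, 10.3, 19.6 and 15.5 CPM in low RFI, against 7.62 to 13.7 CPM in high RFI (log2 fold 0.93, and 0.39 without the 4). WDR31, a WD-repeat gene, had 16.2, 7.01, 4.47, 10.4 and 3.85 CPM in low RFI, against 1.99 to 3.89 CPM in high RFI (1.34, and 0.37 without the 4). These 3 had their highest levels in libraries that stood apart for other genes.

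BBS5, a subunit of the ciliary BBSome, averaged 32.5 ± 4.97 CPM in low RFI, against 24.3 ± 2.39 CPM in high RFI (log2 fold 0.42, SE 0.13, and 0.26 without the 4), with low RFI library 4 highest at 39.5 CPM. TTLL1, which adds glutamate chains to tubulin, averaged 11.7 ± 3.69 CPM in low RFI, against 7.15 ± 0.924 CPM in high RFI (0.71, and 0.20 without 4 libraries). FOLR1, a folate receptor of epithelia, had 94.8 CPM in low RFI library 4 and 0.719 to 1.83 CPM in the other 4 low RFI libraries, against 0.168 to 1.04 CPM in high RFI. Its log2 fold was 5.05 with that library and 1.53 without the 4. ALDH3B2, an aldehyde dehydrogenase, had 24.5, 26.7, 12.5, 40.6 and 16.5 CPM in low RFI, against 12.5 to 14.2 CPM in high RFI, and its fold of 0.87 was 0.13 without the 4. The ciliary regulator FOXJ1 stood at 113 CPM in low RFI library 4 and between 3.69 and 10.4 CPM in the other 9 libraries.

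**Figure D4:**
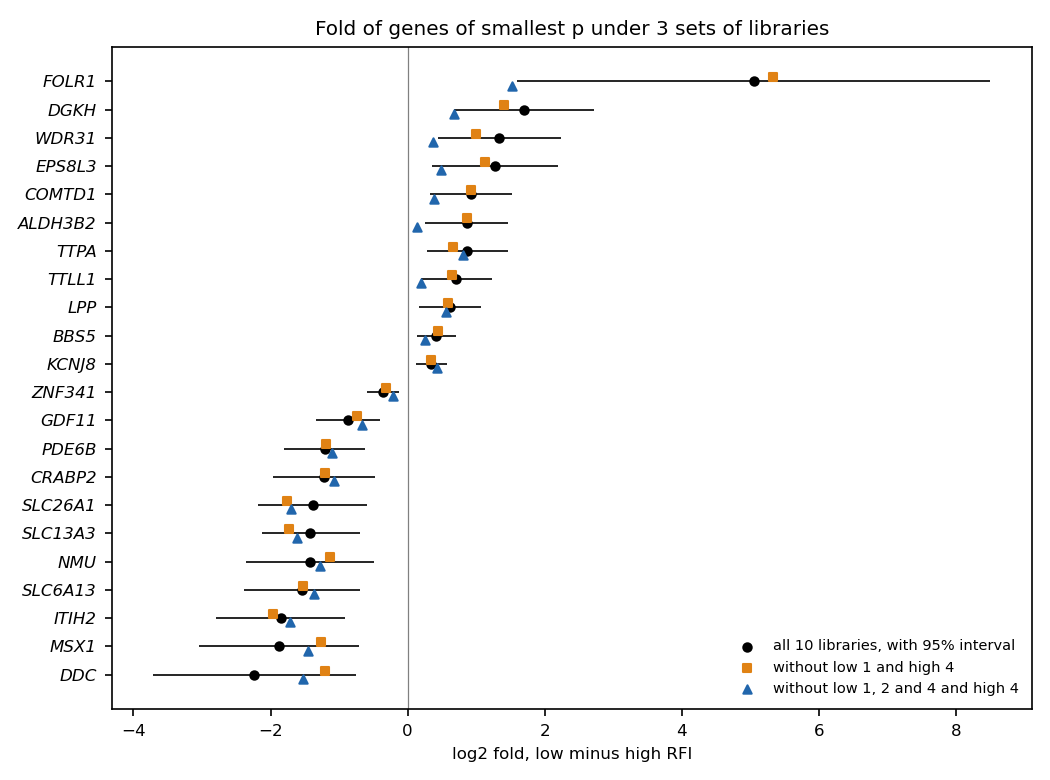
Log2 fold, low minus high RFI (x axis), of 22 of the 24 genes of smallest unadjusted p, 12 in each direction, over all 10 libraries (black, with its 95% interval) and in the 2 reduced sets of libraries (orange and blue). PDE6B, KCNJ8 and LPP stay close to their values over all libraries, and TTPA moves from 0.87 to 0.66 in the larger reduced set. In the smallest set GDF11 moves from -0.87 to -0.67, FOLR1 to 1.53 and ALDH3B2 to 0.13.

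Markers of other cell types and tissues were summed in each library, and no member of any of these lists passed the test. The meningeal and fibroblast list had 14 members that passed the filter on low counts, each with a fold below 0 (44.5% of all genes were). Their median log2 fold was -0.44, and 3 were at an unadjusted p under 0.05 (1.88% of all genes were): SLC6A13, SLC13A3 and ITIH2. Those 3 were placed on the list with earlier results of these libraries known, so their count is no result about the list. The collagen genes COL1A1 and COL1A2 averaged 1585 ± 1292 and 1504 ± 1169 CPM in low RFI, against 2793 ± 2286 and 2519 ± 2207 CPM in high RFI (log2 folds -0.82 and -0.74, edgeR unadjusted p = 0.263 and 0.298). The summed list ran from 1321 CPM in library 1 to 8681 CPM in library 2 in low RFI, and from 4271 to 17279 CPM, in library 2, in high RFI. High RFI library 1 had the most SLC13A3 and ITIH2 of its group and the least COL1A1, at 1232 CPM. Without high RFI library 2 the median was -0.11, and in the 2 reduced sets it was -0.51 and -0.58. The 2 matched members under the filter had higher means in low RFI. SLC13A4, a sulfate transporter, stood at 1.28 ± 1.52 CPM in low RFI and at 0.905 ± 0.546 CPM in high RFI. SLC6A20, an imino acid transporter, had 0.827, 0.719, 0.860, 0.931 and 1.19 CPM in low RFI, against 0.0948, 0.190, 0.423, 0.0854 and 0.421 CPM in high RFI. The part of meningeal content in the folds of the lower genes was not tested.

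The brain and nerve lists followed single libraries. These lists and the mucosal one were chosen with earlier results of these libraries known. They hold genes that mark these libraries, such as GBX2, BARHL1, SCN11A and PIGR, so where each list peaks is no independent result. Forebrain neuron markers summed to 3196 CPM in low RFI library 1 and 239 to 430.5 CPM in the other low RFI libraries, against 1568 CPM in high RFI library 4 and 220 to 413 CPM in the other high RFI libraries. Their median log2 fold was 0.58 over 13 genes, 0.03 without those 2 libraries and -0.96 without 4. Cerebellar and midbrain markers summed to 150 to 557 CPM in low RFI and 175 to 1543 CPM in high RFI, highest in high RFI library 4. Sensory ganglion markers, such as the capsaicin receptor gene TRPV1, summed to 2215 CPM in low RFI library 2 and 197 to 474 CPM in the others, against 357 to 884 CPM in high RFI. That list had 10 of 11 folds above 0 and a median of 1.44, which was -0.80 without the 4 libraries. Mucosal epithelium markers summed to 1858 CPM in low RFI library 4 and 235 to 827 CPM in the others, against 358 to 865 CPM in high RFI, and their median of 0.56 became -0.05 without the 4.

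Myelin genes gave the largest turn of direction. Oligodendrocyte markers summed to 28686, 2900, 569, 1030 and 1206 CPM in low RFI, against 13386, 3539, 1342, 4336 and 2855 CPM in high RFI. Low RFI library 1 was the highest of all, and 3 of the low RFI libraries were lower than every high RFI library. MBP, the gene of myelin basic protein, had 14205, 2095, 327, 600 and 794 CPM in low RFI, against 6710, 2641, 876, 2512 and 1567 CPM in high RFI. Over all libraries 9 of 10 members had a fold above 0, with a median of 0.54. Without low RFI library 1 and high RFI library 4, 0 of 10 did, with a median of -1.39. That set leaves out the highest low RFI library but keeps the highest high RFI one, library 1 at 13386 CPM. Astrocyte and tanycyte markers moved likewise, with medians of 0.29 and -0.34.

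Lists of vessel, blood, immune and supporting cells had medians between -0.26 and 0.18. Endothelial markers had 1 of 13 folds above 0 and a median of -0.07, and folliculostellate markers, of the supporting cells of the anterior lobe, 1 of 11 and -0.10. Mural cell markers had a median of -0.26 over 10 genes although KCNJ8 is among them, and -0.03 without 2 libraries. Microglia and macrophage markers had a median of -0.22, lymphocyte markers 0.18 and erythrocyte markers -0.15. Skeletal muscle markers summed to 321 to 2211 CPM in low RFI and 85.3 to 3478 CPM in high RFI, with a median of 0.00. The embryonic globin gene HBZ was the 1 marker of these cell types at 0 in all 10 libraries.

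**Figure D5:**
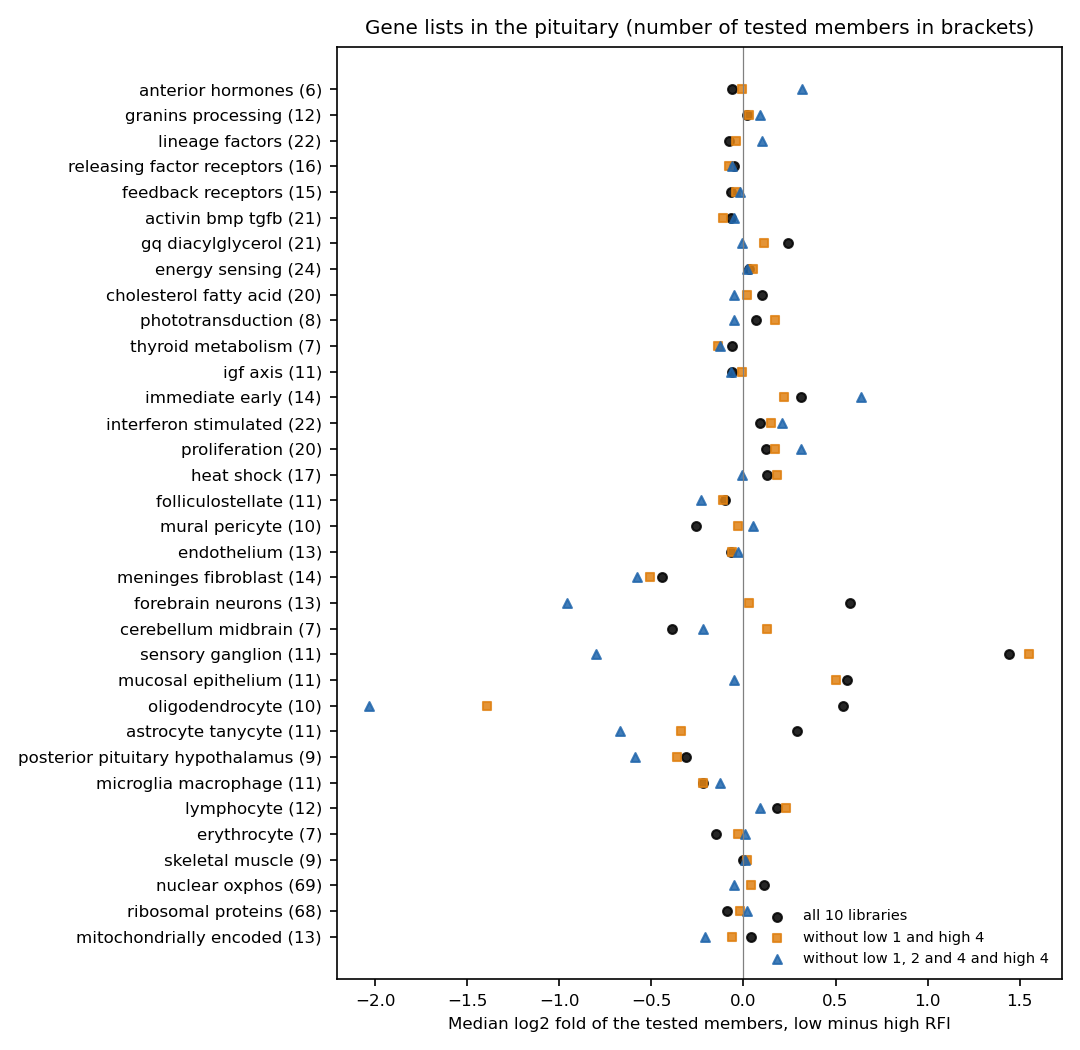
Median log2 fold, low minus high RFI (x axis), of the tested members of each of 34 gene lists, over all 10 libraries (black), without low RFI library 1 and high RFI library 4 (orange), and also without low RFI libraries 2 and 4 (blue). The receptor and metabolic lists lie near 0 in all 3 sets, the hormone list lies at 0.32 in the smallest set, and the meningeal list lies between -0.44 and -0.58. The oligodendrocyte and sensory ganglion medians change sign. Others do too, such as the hormone, forebrain neuron, cerebellar and midbrain, astrocyte, mucosal epithelium and nuclear respiratory chain lists.

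Among signalling and metabolic lists no member passed the test, and all medians but that of Gq and diacylglycerol signalling lay between -0.07 and 0.10. The activin, BMP and TGF-beta list, to which GDF11 belongs, had 9 of 21 folds above 0 and a median of -0.07. The list of Gq and diacylglycerol signalling, to which DGKH belongs, had 16 of 21 above 0 and a median of 0.24, which was 0.11 and -0.01 in the reduced sets. Its gene PLCB1, a phospholipase that makes diacylglycerol, had 103, 131, 25.4, 24.7 and 16.9 CPM in low RFI, against 23.6, 22, 34.7, 43.4 and 27.2 CPM in high RFI, so that 2 libraries carried its log2 fold of 1.00. Energy-sensing genes had 17 of 24 above 0 with a median of 0.03. PRKAA1, a catalytic subunit of AMP-activated kinase, averaged 62.5 ± 13.3 CPM in low RFI, against 50.5 ± 2.72 CPM in high RFI (log2 fold 0.31, edgeR unadjusted p = 0.0518). Low RFI libraries 1 and 2 were highest, at 69.5 and 81.1 CPM, and the fold was 0.17 without the 4 libraries. The gene of the other catalytic subunit, PRKAA2, had a log2 fold of -0.09.

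Sterol and fatty acid genes had a median of 0.10 over 20 members, with SQLE at 0.24 and HMGCS1, the entry enzyme of the sterol pathway, at 0.48. HMGCS1 had 353 CPM in low RFI library 2 and 94.7 to 181 CPM in the other low RFI libraries, against 88.8 to 191 CPM in high RFI. Phototransduction genes, the pathway of PDE6B, were mostly scarce, and 8 were tested, with a median of 0.07. Their blue-light photopigment melanopsin (OPN4) averaged 3.56 ± 2.53 CPM in low RFI, against 2.14 ± 0.520 CPM in high RFI. SLCO1C1, a thyroxine importer of brain barriers, had 1.75, 0.809, 6.19, 4.10 and 8.26 CPM in low RFI, against 14.8, 15.4, 8.98, 24.8 and 5.22 CPM in high RFI. Of its 5 high RFI libraries, 4 lay above all low RFI ones (log2 fold -1.71, SE 0.60, edgeR unadjusted p = 0.0171), and the fold was -1.17 and -0.61 in the reduced sets. In the insulin-like growth factor list, IGF2 averaged 6.76 ± 2.23 CPM in low RFI, against 11 ± 4.47 CPM in high RFI (log2 fold -0.71), and IGFBP5 stood at 16 ± 6.90 CPM in low RFI and at 24.4 ± 6.45 CPM in high RFI (-0.61).

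Lists of cell state had most folds above 0 over all libraries. Immediate early genes, which respond within minutes to stimulation or handling, had 11 of 14 folds above 0 and a median of 0.31, but summed to 3659 CPM in low RFI library 5 and 3337 CPM in high RFI library 1, the highest of each group. Without low RFI library 5 the median was -0.11, while in the reduced sets it was 0.22 and 0.64. Proliferation genes had 16 of 20 above 0 and a median of 0.12, with 0.17 and 0.31 in the reduced sets. NUSAP1, a spindle protein, had 6.80, 7.10, 12, 10.3 and 8.99 CPM in low RFI, against 6.35, 7.59, 6.01, 3.50 and 7.32 CPM in high RFI (log2 fold 0.56, SE 0.25, edgeR unadjusted p = 0.0505). Of the low RFI libraries, 3 lay above all of high RFI. Interferon-stimulated genes had 17 of 22 above 0 and a median of 0.09, with 0.15 and 0.21 in the reduced sets. Heat shock genes had 14 of 17 above 0 and a median of 0.13, against 8 of 17 and -0.01 in the smallest set.

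Respiratory chain genes of the nucleus were above 0 in 63 of 69 members, with a median of 0.11, against 46 of 69 and 0.04 without low RFI library 1 and high RFI library 4. In the smallest set 21 of 69 were above 0, with a median of -0.05. The genes of the mitochondrial genome had 9 of 13 folds above 0 and a median of 0.04, against 1 of 13 and -0.06 without those 2 libraries and 0 of 13 and -0.21 in the smallest set, and the summed level was highest in low RFI library 1. Ribosomal protein genes had 4 of 68 folds above 0 and a median of -0.09, against 25 of 68 and -0.02 without those 2 libraries. Without low RFI library 1 alone the ribosomal median was 0.04.

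Whether a difference belonged to the pituitary rather than to both tissues was asked by the tissue difference, in which the hypothalamus fold is subtracted from that of the pituitary within 1 model of the 20 libraries. The model treats these libraries as independent and holds no term for birds that the 2 tissues may share. Of 16747 genes, 0 (0.0%) passed with edgeR and 392 (2.34%) reached an unadjusted p under 0.05. Of 22 of the 24 genes of smallest p in the pituitary, 12 reached an unadjusted p under 0.05 in it too, a comparison that shares the pituitary libraries that chose them. For PDE6B the difference was -1.73 (edgeR unadjusted p = 0.0313), for GDF11 -0.86 (0.0385), for SLC13A3 -1.56 (0.0099) and for SLC6A13 -2.25 (0.0258), while for KCNJ8 it was 0.29 (0.157) and for LPP -0.01 (0.984). DESeq2 called 2 genes in this fit. They were BARHL1, with 56.8 CPM in high RFI library 4 and at most 0.254 in the other 9 pituitary libraries, and DDC, with a difference of -4.06 (DESeq2 adjusted p = 0.00559, edgeR adjusted p = 1.0). Both were at their highest pituitary level in high RFI library 4. The pituitary folds alone were -1.21 for PDE6B, -0.87 for GDF11, -1.42 for SLC13A3, -1.54 for SLC6A13 and -2.24 for DDC. Where a difference is larger in size than the pituitary fold, it also draws on the hypothalamus fold, which is not given here.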

How the data were processed

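Total RNA of pituitary and hypothalamus was extracted with TRIzol, and 1 µg of integrity number 7.7 or more went into a library, per the labels' protocols. The deposited tables by the authors hold raw counts and FPKM values of 28021 genes. HISAT2 2.0.5, DESeq2 1.20.0 and the GRCg6a assembly are named in the submitters' processing notes. Neither the counting tool nor its handling of strand is given in the sources used here, which leaves antisense and overlapping genes uncertain. The deposited FPKM values equal the count divided by gene length and a constant per library, and were used only to compare levels between genes.

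The 10 pituitary libraries were fitted with edgeR 4.0.16 (R 4.3.3; TMM scaling, filterByExpr, robust quasi-likelihood test, Benjamini-Hochberg adjustment over all genes tested, threshold 0.05). The tissue difference is the interaction in a fit of all 20 libraries. Intervals are 95% and come from the fit. Alternatives were DESeq2 1.42.0, limma-voom 3.58.1 with and without sample quality weights, other scaling, other filters on low counts, the replicate number as a block, and libraries left out. Scripts were tested on simulated data. No 2 libraries of a group differed by sampling noise alone, as the chi-square of their counts per degree of freedom was at least 13.7.

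Named genes were in each direction the 12 named protein-coding genes with the smallest p, the hormone genes, the 2 members of smallest p of each list, and for each library up to 4 genes standing farthest above the next highest library, beside list members given as background. A few genes that this rule names are not reported here. The members and the 34 lists were chosen with earlier results of these data known. Of 665 genes on the lists 595 were matched to a row, and LHB was not among them. Symbols came from the deposited table and, for 780 genes, from its descriptions or RefSeq gene IDs. The rows matched by RefSeq use the names of its GRCg7b annotation and no coordinates.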

Additional observations from a re-analysis of the deposited data

Results flagged for a closer look

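Groups of 5 libraries were examined over the genes named here. In 48 of 246, the highest or lowest library stood apart from the other 4 of its group by more than Dixon's 95% limit. Chance marks about 1 in 20 only where values are normally distributed. The limit was applied to CPM that were not log-scaled, so the share that chance would mark here is not known. Genes named for standing out in a library were picked for a high level there, which favours a mark, so their count says nothing of its own. Low RFI library 1 was the one apart in 12 of these, high RFI library 4 in 8, high RFI library 2 and low RFI library 2 in 7 each, low RFI library 4 in 6, high RFI library 1 in 5, high RFI library 5 in 2 and low RFI library 5 in 1.

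Low RFI library 1 was high in some genes of diencephalon and glia, though not in all. It held GBX2 at 42.9 CPM, LHX9 at 33.7, TCF7L2 at 284, OTX2 at 11.7, the peptide hormone gene AVP at 102 and the thyroxine carrier gene TTR, abundant in choroid plexus, at 813. The glial genes MYRF at 74.3, GJA1 at 559 and SLC1A2 at 218 CPM were also apart there, as was CPNE7 at 87.4. GABRD at 2.48 and, on the low side, STBD1 at 4.23 were apart by small margins. The list of posterior pituitary and hypothalamus markers, which holds AVP and NKX2-1, summed to 681 CPM there. It summed to 394 to 1675 CPM in the other low RFI libraries and 582 to 1512 CPM in high RFI. Its median log2 fold was -0.31, with 2 of 9 folds above 0. NKX2-1 was lowest in low RFI library 1, at 0.368 CPM, against 2.70 to 27.7 CPM in the others. High RFI library 4 was high in genes of cerebellum and midbrain, with FAT2 at 139.9 CPM, BARHL1 at 56.8, GABRD at 139 and EN2 at 75.9. It also held DDC at 69.0 CPM, NKX2-1 at 27.7, SLC1A2 at 40.8 and GBX2 at 0.341.

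Low RFI library 2 was high in sensory nerve genes, with SCN11A at 535 CPM, TMC3 at 177, PIRT at 179, LPAR3 at 430.2, TRPV1 at 60.2 and PRPH at 63.3, and in the heat shock co-chaperone gene BAG3 at 249.9. Low RFI library 4 was high in epithelial genes, with BPIL3 at 5237 CPM, CHIA at 344, PIGR at 225, FOXJ1 at 113, FOLR1 at 94.8 and C21orf58 at 63.8. High RFI library 2 stood highest in the bone matrix genes PHEX at 19.0 CPM, DMP1 at 67.7 and MMP13 at 527, and in PRLL at 12.6, and lowest in OPN4 at 1.23. It was highest only within its own group in COMTD1 at 13.7 and AVP at 8.35, which reached 29.0 and 102 CPM in low RFI libraries.

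High RFI library 1 held SERPIND1 at 10.2 CPM, STBD1 at 15.1, TMCO4 at 15.3, SQLE at 70.4 and the immediate early gene EGR4 at 23.0. High RFI library 5 held GVINP1 at 48.6 CPM and HHATL at 79.7. Low RFI library 5 held ALKBH8 at 17.2 CPM.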

How the results depend on the processing

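No alternative called a gene between the RFI groups. At an unadjusted p under 0.05, against 296 genes over all libraries, edgeR gave 618 with no filter on low counts, 447 without low RFI library 1 and high RFI library 4, 711 also without low RFI libraries 2 and 4, and 723 from the fit of all 20 libraries, limma-voom with sample quality weights gave 525, and leaving out 1 library gave 202 to 585. The highest was without low RFI library 1 and the lowest without high RFI library 2, and without low RFI library 5 it was 462. For the tissue difference DESeq2 called 2 genes against 0, and edgeR's 392 genes at an unadjusted p under 0.05 became 774 with no filter and 387 to 683 with 1 library left out. The share of folds above 0 was 55.5% over all libraries and 47.4% without 4.

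Same-numbered libraries of the 2 groups had correlated deviations of 0.00911, 0.401, 0.238, -0.127 and 0.238, not all above 0.1. The labels name no batch that a number marks, so the libraries were taken to share only a number. Libraries of unlike number were not compared, so these values do not show that the numbers carry no pairing. With the replicate number as a block 0 genes passed and 241 reached an unadjusted p under 0.05. Under the block the folds of TTR (-0.54), MYRF (-0.04), SLC1A2 (-0.16), AVP (-0.43) and ACTN2 (0.38) changed sign.

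Of 86 genes named with a fold, 24 changed sign under at least 1 alternative. Without low RFI library 1 and high RFI library 4 they were GH (0.01), CGA (0.03), TCF7L2 (-0.07), TTR (-1.25), FAT2 (0.71), MYRF (-0.90), SLC1A2 (-0.39) and AVP (-1.70). Without low RFI libraries 1, 2 and 4 and high RFI library 4 they were GH (0.32), PRL (0.41), CGA (0.40), TSHB (0.31), CADPS (-0.05), GLP1R (0.13), PLCB1 (-0.33), OPN4 (-0.24), TTR (-1.59), BAG3 (-0.04), TAGLN (0.03), FAT2 (0.45), TRPV1 (-0.20), PIGR (-0.00), MYRF (-0.80), SLC1A2 (-0.67), AVP (-2.14) and ND3 (-0.04). With sample quality weights they were CGA (0.06), TSHB (0.03), FSHB (0.39), PLCB1 (-0.04), TTR (-0.44), FAT2 (0.37), TRPV1 (-0.30), MYRF (-0.42), SLC1A2 (-0.26), AVP (-1.18), ACTN2 (0.37) and ND3 (-0.02), and with limma-voom alone MYRF (-0.03) and ACTN2 (0.43).

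With 1 library left out the folds ran from -0.45 to 0.12 for GH, -0.38 to 0.19 for PRL, -0.12 to 0.24 for POMC, -0.30 to 0.20 for CGA, -0.37 to 0.21 for TSHB, -0.34 to 0.43 for FSHB, -1.26 to 4.28 for TTR, -5.05 to 0.68 for FAT2, -0.42 to 2.04 for TRPV1, -0.49 to 5.99 for PIGR, -0.07 to 2.14 for FOXJ1, -0.99 to 1.32 for MYRF, -0.83 to 1.83 for SLC1A2, -1.54 to 3.81 for AVP, -0.53 to 0.04 for TAL1, -0.54 to 0.45 for ACTN2 and -0.08 to 0.30 for ND3. The cause was not tested beyond which libraries were left out. Depth of 10262777 counts or more leaves genes under about 1 CPM with large counting error, and the number of libraries limits the rest.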
